A study of Saccharomyces bayanus x Saccharomyces cerevisiae with 8 samples.

Results

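The genes of the shikimate pathway and of tryptophan synthesis were examined as a set of 10 among the 4238 orthologs measured in a yeast hybrid. They are ARO3 (YDR035W), ARO4 (YBR249C), ARO1 (YDR127W), ARO2 (YGL148W), ARO7 (YPR060C), TRP2 (YER090W), TRP3 (YKL211C), TRP4 (YDR354W), TRP1 (YDR007W) and TRP5 (YGL026C), chosen by name as the enzymes of this route. All 10 were present in the table and all 10 had enough reads to be tested. Of these ORFs, ARO3, ARO1, TRP4 and TRP1 lie on chromosome IV of S. cerevisiae, ARO2 and TRP5 on VII, ARO4 on II, TRP2 on V, TRP3 on XI and ARO7 on XVI, by their systematic names.

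The shikimate pathway builds chorismate, the common precursor of the aromatic amino acids, from phosphoenolpyruvate and erythrose 4-phosphate. From chorismate, ARO7 leads to phenylalanine and tyrosine and the TRP enzymes lead to tryptophan. In S. cerevisiae the flux is set largely by feedback on the enzymes: the ARO3 product is inhibited by phenylalanine and the ARO4 product by tyrosine, while tryptophan inhibits anthranilate synthase and activates chorismate mutase. Many of these genes are also under general amino acid control through the transcription factor Gcn4, which is induced on starvation for amino acids.

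The strain was OZY27, a diploid hybrid of S. bayanus (from CBS 4001, marked ade2 his3 lys2) and S. cerevisiae (isogenic to W303, marked his3 leu2 lys2 trp1 ura3). Cells of 2 biological replicates, each a separate culture, were grown at 25 °C to log phase in YPD, a rich glucose medium that supplies amino acids, and 1 RNA-seq library was made per culture. The libraries were sequenced in 8 lanes, each deposited as a sample: 5 lanes for replicate 1, of which 2 were run at UCR, and 3 lanes for replicate 2, of which 1 was run at UCR, the others being run at UCB. There was no other strain or medium, and the comparison is between the S. bayanus and the S. cerevisiae allele of each gene inside the same cells.

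The lanes held 2350222 to 3159446 reads each, 14707025 in replicate 1 and 8223099 in replicate 2. Lane 4 of replicate 2 stood apart for orthologs that differ in GC content. In the 420 tested genes whose S. bayanus ortholog is richest in GC relative to S. cerevisiae, the S. bayanus allele held 62.6% of the reads in lane 4, against 49.9% to 58.1% in the other lanes. Over all genes the share was 53.4% in lane 4 and 50.6% to 52.9% in the others.

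Averaged over both alleles, all 10 genes were expressed above the median of the tested genes. Levels are given as RPKM, here reads per kb of mappable length per 1000000 reads of that genome, with the SD over the 2 cultures. ARO4, a DAHP synthase that catalyses the first step, was the highest, at 2225 ± 151 RPKM for the S. bayanus allele and 1838 ± 285 RPKM for the S. cerevisiae allele (SD, n = 2). Averaged over both alleles, its level lay above 98.3% of the tested genes, whose median was 91.9 RPKM. ARO2, chorismate synthase, followed at 1294 ± 264 RPKM for S. bayanus and 1188 ± 28.8 RPKM for S. cerevisiae (SD, n = 2). ARO3, the other DAHP synthase, had 781 ± 172 RPKM for S. bayanus and 568 ± 55.7 RPKM for S. cerevisiae (SD, n = 2).

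The enzymes of the tryptophan branch were at lower levels than these. TRP5, tryptophan synthase, had 392 ± 83.1 RPKM for the S. bayanus allele and 359 ± 64.6 RPKM for the S. cerevisiae allele. TRP2, which encodes the large subunit of anthranilate synthase, had 308 ± 40.6 RPKM for S. bayanus and 338 ± 25.8 RPKM for S. cerevisiae. Its partner in that complex, TRP3, which also encodes indole-3-glycerol phosphate synthase, had 178 ± 5.71 RPKM for S. bayanus and 247 ± 27.1 RPKM for S. cerevisiae. In each allele the lower culture value of TRP2 lay above the higher one of TRP3, at 280 against 182 RPKM for S. bayanus and 319 against 266 RPKM for S. cerevisiae.

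TRP4, anthranilate phosphoribosyltransferase, had 202 ± 45.2 RPKM for S. bayanus and 230 ± 46.7 RPKM for S. cerevisiae. ARO1, a single long protein that carries the central steps of the shikimate pathway, had 249 ± 71.3 RPKM for S. bayanus and 212 ± 53.1 RPKM for S. cerevisiae. ARO7, chorismate mutase, had 142 ± 40.6 RPKM for S. bayanus, the lowest of the 10 S. bayanus alleles, and 237 ± 80.7 RPKM for S. cerevisiae. TRP1, phosphoribosylanthranilate isomerase, had 223 ± 7.40 RPKM for S. bayanus and 52.3 ± 8.29 RPKM for S. cerevisiae, the lowest of all 20 allele levels described here.

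Taken over both alleles, the order was ARO4, ARO2, ARO3, TRP5, TRP2, ARO1, TRP4, TRP3, ARO7 and TRP1. On the mappable length, the culture values separated each of ARO4, ARO2 and ARO3 from the next gene in this order. TRP5, at 323 and 428 RPKM in replicates 1 and 2, and TRP2, at 318 and 328 RPKM, overlapped. The next 4 overlapped as well: in replicates 1 and 2, ARO1 was at 186 and 274 RPKM, TRP4 at 183 and 248 RPKM, TRP3 at 201 and 224 RPKM, and ARO7 at 232 and 147 RPKM. TRP1 lay below them at 138 and 137 RPKM. By allele, the S. bayanus allele of TRP1 ranked 7 among the members, and its S. cerevisiae allele, which is the marker allele, ranked 10.

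**Figure D1:**
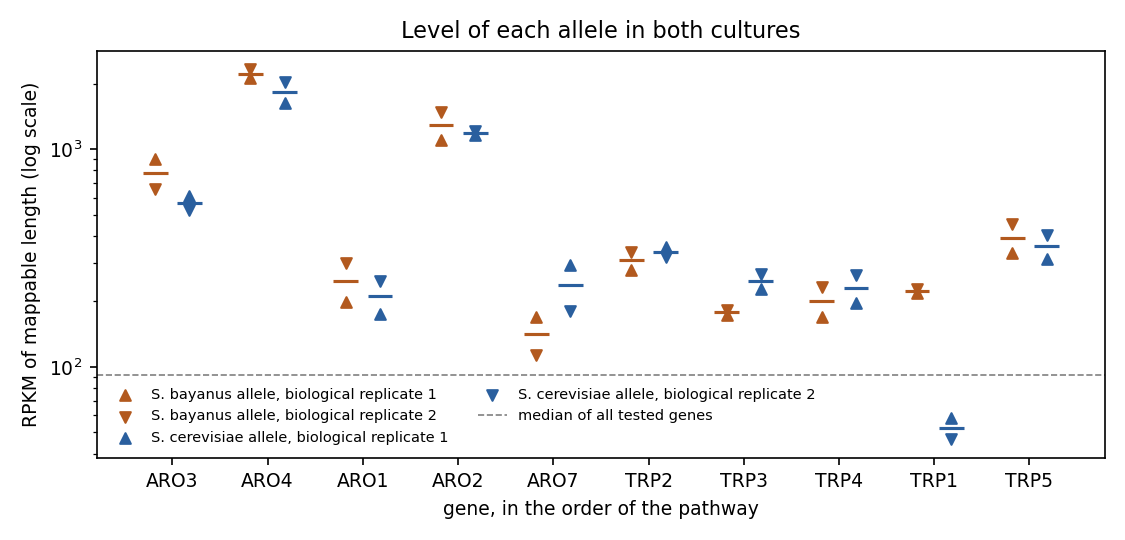
Level of each allele in RPKM of mappable length (log axis), S. bayanus left of S. cerevisiae for each gene, with 1 triangle per culture and a bar at their mean; the dashed line marks the median of all tested genes, 91.9 RPKM. ARO4 and ARO2 are the highest genes, and the S. cerevisiae allele of TRP1 is the only allele under the dashed line.

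The authors' table gives for each ortholog the length over which reads can be mapped. ARO4 was mappable over 60.3% of its S. bayanus and 60.6% of its S. cerevisiae length, and ARO3 over 74.4% of its S. bayanus and 76.7% of its S. cerevisiae length, against medians of 91.0% for S. bayanus and 90.9% for S. cerevisiae over the tested genes. TRP5 was mappable over 77.8% of its length in both genomes. ARO3 and ARO4 are paralogs, and how reads that match more than 1 gene were counted is not stated, so their values are given as uncertain. With the full ortholog length in place of the mappable length, ARO4 averaged 1341 RPKM for S. bayanus and 1115 RPKM for S. cerevisiae. ARO2 was mappable over 86.6% of its length in both genomes, so the full length lowers it less than ARO4. On the full length the culture values of ARO4 and ARO2, taken over both alleles, overlap, and the separation given above holds for the mappable length only.

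The question put to each gene is whether its alleles are expressed unequally. The alleles of 5 of the 10 genes differed (edgeR quasi-likelihood test, Benjamini-Hochberg over all tested genes, threshold 0.05): the S. bayanus allele was higher for TRP1, ARO3 and ARO4, and the S. cerevisiae allele for ARO7 and TRP3. Of all 4197 tested genes 53.5% differed, 26.6% with S. bayanus higher and 26.9% with S. cerevisiae higher, so the members differed about as often as genes in general. Ratios and shifts are given on the log2 scale with their standard error (SE) after the ± sign. The SE is the absolute log2 value divided by the square root of the edgeR F statistic, and is not the SD over the cultures. The ratio was under 1.5-fold in 8 of the 10 and in 69.2% of the tested genes. The median absolute log2 ratio was 0.25 in the members and 0.37 over the tested genes.

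TRP1 had the largest difference. It had 1007 and 607 reads from the S. bayanus allele in replicates 1 and 2, against 254 and 110 reads from the S. cerevisiae allele. The S. bayanus share of its reads was 81.5%, 79.6%, 80.3%, 78.3% and 79.6% in the 5 lanes of replicate 1 and 85.2%, 86.1% and 81.9% in the 3 lanes of replicate 2. It was thus far above an equal share in every lane, and the lanes of replicate 2 were all above those of replicate 1.

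The S. bayanus allele of TRP1 was 4.21-fold higher, a log2 ratio of 2.07 ± 0.14 (edgeR, adjusted p = 0.000718). The ratio ranked 64 of the 4197 genes toward S. bayanus, and it was 1.86 in the UCR lanes and 2.17 in the UCB lanes. It passed the test under all 20 alternatives that gave a test, with log2 ratios of 1.86 to 2.19. The GC content of the S. bayanus ortholog is higher by 4.64 percentage points, and after correction for this difference the log2 ratio was 1.90. Per the labels, the S. cerevisiae genome of the strain carries a trp1 marker and the S. bayanus genome does not; the kind of mutation is not given. The S. cerevisiae allele is the marker allele in every library, so a difference between the species' genes and an effect of the marker mutation cannot be told apart.

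ARO7 had the largest difference toward S. cerevisiae. It had 821 and 313 reads from S. bayanus in replicates 1 and 2, against 1352 and 449 reads from S. cerevisiae. The S. bayanus share was 39.5%, 40.5%, 37.5%, 35.6% and 35.3% in the lanes of replicate 1 and 42.2%, 43.0% and 36.9% in those of replicate 2, below an equal share in all 8 lanes, and the cultures overlapped. The S. bayanus allele was 1.67-fold lower, a log2 ratio of -0.74 ± 0.10 (edgeR, adjusted p = 0.00346). The ratio was -0.96 in the UCR lanes and -0.64 in the UCB lanes. The S. bayanus ortholog is poorer in GC, with a difference of -0.94 points that is below that of all but 4.98% of tested genes, and after GC correction the log2 ratio was -0.54 and still passed the test (edgeR, adjusted p = 0.000351).

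The DAHP synthases ARO3 and ARO4 both had a higher S. bayanus allele. ARO3 had 5629 and 2365 reads from S. bayanus in replicates 1 and 2, against 3723 and 1757 reads from S. cerevisiae, and its S. bayanus share was 61.5%, 60.4%, 60.4%, 59.9% and 58.7% in the lanes of replicate 1 and 56.2%, 59.3% and 56.6% in those of replicate 2. The log2 ratio was 0.44 ± 0.10 (edgeR, adjusted p = 0.0137), at 0.38 in the UCR lanes and 0.49 in the UCB lanes. ARO4 had 10667 and 6753 reads from S. bayanus in replicates 1 and 2, against 7930 and 5358 from S. cerevisiae.

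For ARO4 the S. bayanus share lay between 56.6% and 58.8% in the lanes of replicate 1 and between 55.0% and 56.6% in those of replicate 2, above an equal share in every lane. Its log2 ratio was 0.28 ± 0.08 (edgeR, adjusted p = 0.0357), and it was 0.27 in the UCR lanes and 0.29 in the UCB lanes. The ARO4 call was lost with DESeq2 (adjusted p = 0.0963), after GC correction (edgeR, adjusted p = 0.0528) and without lane 3 (edgeR, adjusted p = 0.0529), each at a log2 ratio of 0.21 to 0.28. The level of ARO4 was 2.35 and 3.53 times that of ARO3 in replicates 1 and 2 for the S. bayanus alleles, and 2.69 and 3.86 times for the S. cerevisiae alleles.

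TRP3 was the other gene with a higher S. cerevisiae allele. It had 1708 and 1028 reads from S. bayanus in replicates 1 and 2, against 2087 and 1322 from S. cerevisiae. The S. bayanus share was 42.7% to 47.8% in the lanes of replicate 1 and 43.2% to 44.0% in those of replicate 2, so that every lane lay below an equal share and the cultures overlapped. The S. bayanus allele was 1.39-fold lower, a log2 ratio of -0.47 ± 0.09 (edgeR, adjusted p = 0.0106). The ratio was -0.51 in the UCR lanes and -0.45 in the UCB lanes. TRP2, the other subunit of anthranilate synthase, had a log2 ratio of -0.14 ± 0.13 (SE) and did not pass the test (edgeR, adjusted p = 0.386).

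The other 4 genes did not pass the test either. ARO1 had a log2 ratio of 0.22 ± 0.08 (edgeR, adjusted p = 0.0616) and a S. bayanus share between 52.0% and 57.2% in all 8 lanes. ARO1 passed with 1 library size for both alleles (edgeR, adjusted p = 0.0310), after GC correction (edgeR, adjusted p = 0.00838), in the UCR lanes alone (edgeR, adjusted p = 0.0259), with each lane taken as a replicate and without lane 4 (edgeR, adjusted p = 0.0328). ARO2, TRP5 and TRP4 had log2 ratios of 0.10, 0.12 and -0.20, and their SEs were 0.11, 0.08 and 0.09. A p that misses the threshold does not show that their alleles were equal. After GC correction TRP2 and TRP4 passed, at -0.32 (edgeR, adjusted p = 0.0135) and -0.34 (edgeR, adjusted p = 0.00789), and ARO2 and TRP5 turned sign, at -0.13 and -0.03, without passing.

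**Figure D2:**
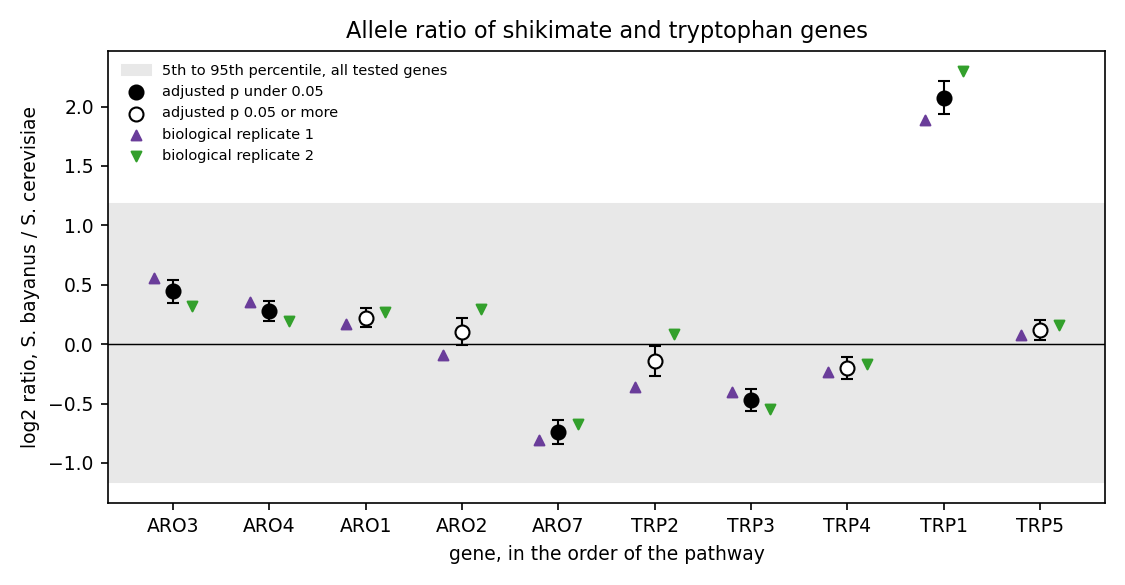
Log2 ratio of the S. bayanus to the S. cerevisiae allele in the order of the pathway, with its standard error (circles, filled where the adjusted p is under 0.05) and the ratio in each culture (triangles); the grey band spans the 5th to 95th percentile of the tested genes, -1.16 to 1.18. Only TRP1 lies outside the band, and the cultures have opposite signs for ARO2 and TRP2.

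Each genome was scaled to its own total, which sets the typical gene to a ratio near 1. With the alleles of a culture at 1 common library size the median gene moved to 0.11 on the log2 scale, and 31.5% of tested genes had a higher S. bayanus and 19.4% a higher S. cerevisiae allele, 50.8% in all. The members then had 4 genes toward S. bayanus, with ARO1 added, and 2 toward S. cerevisiae. The sign of the fitted log2 ratio was the same as in the main scaling for all 10. In the authors' deposited table, the call was S. bayanus higher for 4 members (ARO3, ARO4, ARO1 and TRP1), S. cerevisiae higher for 2 (ARO7 and TRP3) and none for 4, where 48.9% of all 4238 genes were called, with S. bayanus higher in 29.1% and S. cerevisiae higher in 19.8%. The natural log ratio of TRP1 in the authors' deposited table was 1.36 in replicate 1 and 1.66 in replicate 2.

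In 4 of the 10 genes the cultures differed in allele ratio (edgeR interaction test over lanes), against 17.9% of the tested genes. The members were more highly expressed, at a median of 277 RPKM against 91.9 RPKM. More reads make smaller shifts callable, and the shares of genes compared here and below were not matched for level. The S. bayanus share was higher in replicate 1 for ARO3 and ARO4, where 9.2% of tested genes went this way, and lower in replicate 1 for ARO2 and TRP2, where 8.72% did. Each culture gave 1 library, so the p-values rest on lane-to-lane spread alone, and culture and library preparation cannot be told apart. The ratio computed in each culture alone, without a fit or test, had opposite signs for 2 members, ARO2 and TRP2, and for 14.2% of the tested genes. The S. bayanus shares in the lanes of replicate 1 did not overlap those of replicate 2 in 5 of the 10 genes, ARO1, ARO2, ARO4, TRP1 and TRP2, against 21.4% of the tested genes. These shares are not scaled to the lane totals. Over all genes the share was itself 50.6% to 51.7% in the lanes of replicate 1 and 51.8% to 53.4% in those of replicate 2. The culture test, which is scaled, did not call ARO1 (edgeR, adjusted p = 0.400) or TRP1 (edgeR, adjusted p = 0.115).

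TRP2 had the largest shift. Its S. bayanus share was 44.2%, 44.6%, 43.9%, 47.2% and 45.8% in the lanes of replicate 1, and 51.9%, 55.3% and 55.0% in the lanes of replicate 2, with no overlap. Over the summed lanes it was 45.2% (exact binomial 95% interval 44.0 to 46.4) in replicate 1 and 54.0% (52.4 to 55.6) in replicate 2. The shift in log2 ratio, replicate 1 minus replicate 2, was -0.43 ± 0.07 (edgeR, adjusted p = 2.5e-05), and it was -0.45 in the UCR lanes alone and -0.46 in the UCB lanes alone. It passed under all 14 alternatives, GC correction in each lane included, at -0.32 (edgeR, adjusted p = 0.000129). The S. bayanus allele of TRP2 was at 280 RPKM in replicate 1 and 337 RPKM in replicate 2, and the S. cerevisiae allele at 356 and 319 RPKM, so the alleles differed between the cultures in opposite directions.

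ARO2 shifted in the same direction. Its S. bayanus share was 49.2%, 47.7%, 51.7%, 50.8% and 49.9% in the lanes of replicate 1 and 54.0%, 62.1% and 56.9% in lanes 3, 4 and 7 of replicate 2, again with no overlap. The shift was -0.37 ± 0.07 (edgeR, adjusted p = 0.000208), at -0.33 in the UCR lanes alone and -0.42 in the UCB lanes alone, and without lane 4 it was -0.28 (edgeR, adjusted p = 2.31e-05). The lanes of replicate 2 differed among themselves by more than counting error, with a chi-square of 17.8 for each degree of freedom, above that of 99.2% of tested genes, whose median was 0.92.

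The S. bayanus ortholog of ARO2 is 7.05 points richer in GC, the largest difference among the members and above that of 92.9% of tested genes. The 420 genes of the highest decile of GC difference, to which ARO2 belongs, had together a S. bayanus share of 49.9%, 49.9%, 52.6%, 52.8% and 52.2% in lanes 1, 2, 5, 6 and 8 of replicate 1 and of 55.5%, 62.6% and 58.1% in lanes 3, 4 and 7 of replicate 2. The ARO2 values thus had nearly the same order over the lanes as those of this decile. After GC correction in each lane the ARO2 shift was -0.09 and did not pass (edgeR, adjusted p = 0.171). The cause of the ARO2 shift was not tested.

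The shifts of ARO3 and ARO4 were smaller, and of the 14 alternatives they passed under 9 and 7. ARO3 shifted by 0.25 ± 0.07 (edgeR, adjusted p = 0.00798) and ARO4 by 0.18 ± 0.05 (edgeR, adjusted p = 0.0103). Neither passed in the UCR lanes alone, at 0.21 for ARO3 (edgeR, adjusted p = 0.208) and 0.08 for ARO4 (edgeR, adjusted p = 0.578); in the UCB lanes alone ARO3 had 0.26 (edgeR, adjusted p = 0.0515) and ARO4 passed at 0.21 (edgeR, adjusted p = 0.0476). The ARO3 call was lost without lane 3 at 0.19 (edgeR, adjusted p = 0.111) and without lane 7 at 0.18 (edgeR, adjusted p = 0.125), and the ARO4 call without lanes 1, 3, 4 or 7, at shifts of 0.14, 0.15, 0.11 and 0.15 in that order. With the alleles of a lane at 1 common library size, neither passed, at 0.17 (edgeR, adjusted p = 0.0918) and 0.09 (edgeR, adjusted p = 0.223). TRP1 had a shift of -0.39 ± 0.17 (SE), which did not pass (edgeR, adjusted p = 0.115) except without lane 7, at -0.56 (edgeR, adjusted p = 0.0476).

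**Figure D3:**
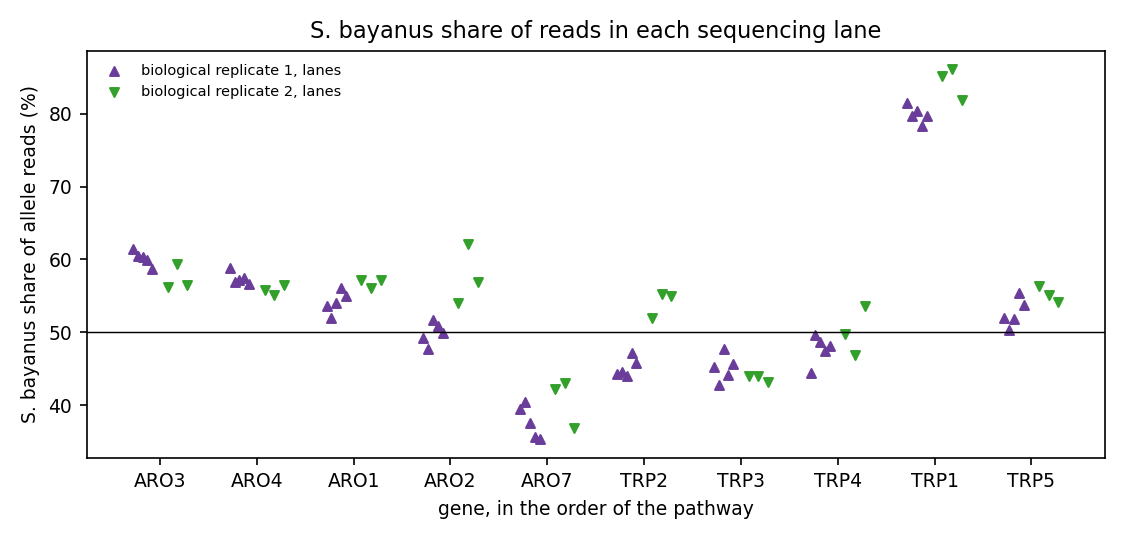
S. bayanus share of the reads of each gene in percent, with 1 triangle per sequencing lane, up for the 5 lanes of replicate 1 and down for the 3 lanes of replicate 2; the line marks 50%. The lanes of the cultures do not overlap for ARO2 and TRP2 and, narrowly, for ARO1, ARO4 and TRP1, and lane 4 is the highest ARO2 point at 62.1%.

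The level of both alleles together also differed between the cultures, which is described here without a test because there was 1 library per culture. The level was higher in replicate 1 for 3 members and lower for 7, where 63.8% of tested genes were higher in replicate 1. ARO7 was at 232 RPKM in replicate 1 and 147 RPKM in replicate 2, a log2 difference of 0.66 that exceeded that of 95.6% of tested genes. ARO1 had the difference of the opposite sign that was largest, at 186 and 274 RPKM, a log2 difference of -0.56 that was below that of all but 4.38% of tested genes. TRP4 and TRP5 went the way of ARO1 at -0.44 and -0.40, where the median of tested genes was 0.12.

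The levels of both alleles differed between the cultures in the same direction for 8 of the 10 genes and for 76.9% of the tested genes, a similar share. For ARO7 the log2 level difference, replicate 1 minus replicate 2, was 0.59 for the S. bayanus allele and 0.71 for the S. cerevisiae allele. For ARO1 it was -0.59 for the S. bayanus allele and -0.52 for the S. cerevisiae allele. The exceptions were TRP2, at -0.27 for the S. bayanus allele and 0.16 for the S. cerevisiae allele, and TRP1, at -0.07 for the S. bayanus allele and 0.32 for the S. cerevisiae allele.

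**Figure D4:**
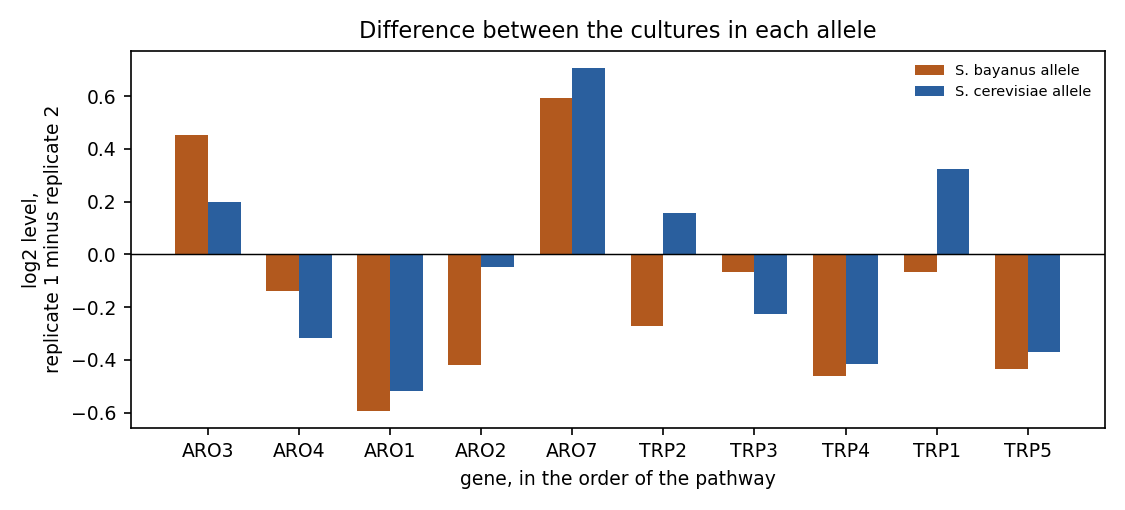
Log2 level of replicate 1 minus that of replicate 2 for each gene, with the S. bayanus allele left of the S. cerevisiae allele; bars start at 0 and each rests on 1 library per culture. Both alleles of ARO7 and ARO3 are above 0, and those of ARO1, ARO4, ARO2, TRP3, TRP4 and TRP5 are below it.

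The place of sequencing made no difference that the test could call. None of the 10 allele ratios differed between UCR and UCB (edgeR interaction test), where 0.0% of tested genes did. At an unadjusted p under 0.05 there were 0 members and 23 tested genes. That is fewer than this threshold gives when nothing differs, so the test was conservative and does not show equal ratios at the sites. With lanes as units and a term for the culture, edgeR called 0 members as well. ARO7 had the largest site difference among the members, at -0.33 ± 0.14 (SE) on the log2 scale.

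Other genes of aromatic amino acid metabolism were counted from 4 lists of systematic ORF names, compiled from general knowledge of the pathway with earlier results of these data known. The deposited files do not pair these ORFs with gene names, so few are printed. Of 20 listed ORFs 19 were in the table and tested, of which 2 had a higher S. bayanus allele, 11 a higher S. cerevisiae allele and 6 did not pass, at a median log2 ratio of -0.29 against -0.00287 over the tested genes. Over all tested genes 26.6% had a higher S. bayanus allele and 26.9% a higher S. cerevisiae allele. In the list of the phenylalanine and tyrosine branch, 3 of 4 were higher in S. cerevisiae and 0 in S. bayanus. The list of other users of chorismate or tryptophan had 2 of 4 toward S. cerevisiae and 1 toward S. bayanus. The list for the supply of erythrose 4-phosphate and phosphoribosyl pyrophosphate had 4 of 7 toward S. cerevisiae and 0 toward S. bayanus.

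The list of regulators and permeases also held YDR380W, which is neither. This list had 2 of 4 tested ORFs toward S. cerevisiae, YDR380W among them, and 1 toward S. bayanus. The ORFs with the largest log2 ratios toward S. cerevisiae were YDR380W at -2.94 ± 0.14 (edgeR, adjusted p = 0.000327) and YHR137W at -2.83 ± 0.12 (edgeR, adjusted p = 0.000263). YDR380W was at 6.35 and 6.18 RPKM in replicates 1 and 2 for the S. bayanus allele, against 50.5 and 45.2 RPKM for the S. cerevisiae allele. Those toward S. bayanus were YJR078W at 2.74 ± 0.20 (edgeR, adjusted p = 0.000780) and YEL009C at 0.38 ± 0.09 (edgeR, adjusted p = 0.0188). YEL009C was at 5222 and 5995 RPKM for the S. bayanus allele and at 3643 and 5041 RPKM for the S. cerevisiae allele, above every member in both. Apart from ARO4 and ARO2, no member reached 1000 RPKM in either allele.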

How the data were processed

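The deposited values are raw read counts for each allele of a gene in each lane, from total RNA mapped with Bowtie per the submitters' processing notes; the version, genome builds, annotation, use of strand and handling of reads that match both species are not stated there, in the labels or in the file headers. Per replicate, the authors also gave a resampling p-value and a natural log ratio, and per gene a deposited score (-1, 0 or 1) that is their combined call. The GC difference is a deposited score, taken as a fraction from its range. Another 4 deposited columns, sums over lanes, were left out.

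Lanes are repeat runs, so counts were summed to 2 cultures by 2 alleles (n = 2). The allele test was edgeR 4.0.16 (R 4.3.3), with the biological replicate as a block because the alleles of a gene come from 1 library, TMM factors on each column's own total and the log mappable length as an offset. Genes needed 10 reads over both alleles in each replicate, and 4197 passed. Culture and site tests used an interaction with the allele, on the lane columns of each allele and on sums per replicate and site; p-values were adjusted by Benjamini-Hochberg over all tested genes. DESeq2 1.42.0 was an alternative. GC correction was a lowess of the log2 ratio with a span of 0.3. Other work used Python 3.11.15 with scipy 1.17.1.

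On simulated data for the 4197 genes, with few changed genes, the allele test recovered 16% of 1.2-fold, 90% of 1.5-fold and 100% of 2-fold changes with 6 false calls. The simulation assumed a spread between the cultures and no effect of GC, so its rates may not hold for these data. Exact binomial intervals reflect counting error alone, because amplified reads lack molecular identifiers and are not separate molecules. The members, the other gene lists and the alternatives were chosen with earlier results of these data known, and all members were named whether or not they passed a test. No sequences were used, and a planned search of promoters for a motif was not run.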

Additional observations from a re-analysis of the deposited data

Results flagged for a closer look

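The allele ratio of 4 members differed between the cultures by the edgeR interaction test over lanes. The shifts in log2 ratio, replicate 1 minus replicate 2, were 0.25 for ARO3, 0.18 for ARO4, -0.37 for ARO2 and -0.43 for TRP2. Of these, the ARO2 shift was -0.09 after GC correction in each lane and the others were 0.26, 0.19 and -0.32 for ARO3, ARO4 and TRP2. The interaction was tested with 1 library per culture. Within replicate 1, lane 1 had the highest S. bayanus share of ARO4, at 58.8% against 56.6% to 57.5%. It had the lowest of TRP4, at 44.4% against 47.4% to 49.7%. The chi-square of TRP4 over the lanes of replicate 1 was only 0.83 for each degree of freedom, where the median of tested genes was 1.00. In replicate 2 the TRP4 value was 3.86, above that of 91.2% of tested genes, with lane 7 at 53.7% against 46.9% and 49.8%. Within replicate 2, lane 4 had the highest share of ARO2, at 62.1% against 54.0% and 56.9%.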

How the results depend on the processing

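The log2 allele ratio kept its sign under all 20 tested alternatives for 8 members, the exceptions being ARO2 and TRP5 after GC correction. The number of genes whose alleles differ, 2247 (1118 toward S. bayanus, 1129 toward S. cerevisiae), was 1480 with DESeq2 (730 and 750) and 866 with no replicate block (416 and 450). Of the members, 5 were called (3 and 2). With no replicate block 1 was, TRP1 (1 and 0), although the pairing of alleles within a library is part of the design. With each lane taken as a replicate, though lanes are repeat runs, it was 9 (5 and 4), and after GC correction 4 members were called toward S. cerevisiae. The counts over all genes in these fits are not given here, so the member counts cannot be set against genes in general. Without each lane in turn 2042 to 2381 genes were called, with 4 to 6 members (2 to 4 toward S. bayanus).

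For the culture difference, 752 genes were called (386 where the S. bayanus share was higher in replicate 1, 366 in replicate 2), against 408 in the UCB lanes alone (163 and 245), 329 in the UCR lanes alone (115 and 214), where the 1 lane of replicate 2 is assumed to vary like those of replicate 1, and 635 and 214 after GC correction in each lane. With both alleles of a lane at 1 library size, chosen like the UCR fit after seeing the data, it was 166 and 518. The members called toward replicate 1 were 2, and 1 with at least 50 reads or in the UCB lanes alone, and 0 with 1 library size or in the UCR lanes alone, each of which left 2 members called. After GC correction 1 member was called toward replicate 2, TRP2. Without each lane in turn 586 to 660 genes were called (206 to 308 toward replicate 1), with 2 to 4 members (0 to 2 toward replicate 1). Where a call was lost, the cause was not tested. The fewest reads behind a member were the 110 of the S. cerevisiae allele of TRP1 in replicate 2.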
